A study of Homo sapiens with 12 samples.

Results

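The TGF-beta and BMP pathway genes described here are 42 genes taken by name: ligands of the transforming growth factor beta superfamily, the proteins that store them outside the cell, their receptors, the SMAD proteins, intracellular inhibitors of the pathway and the ID genes. All 42 were among the 55882 gene symbols of the count table, and 37 of them were among the 14799 genes with enough counts to test. The rule lists names, and the list was drawn up with earlier results of these data known. The cells were T47D, an established human breast cancer line of luminal type that expresses the estrogen receptor. Control cells, labelled wild type or normal, and cells with ectopic HOXB13, a homeobox transcription factor, were first held for 72 h in medium with hormone-depleted (charcoal-stripped) serum. They then received 2 nM estradiol or its vehicle, ethanol, and RNA was taken 24 h later. Each genotype under each treatment is a group of 3 libraries, which makes 4 groups and 12 libraries. The labels do not say what drives HOXB13, whether the HOXB13 cells are 1 clone or a pool, or whether control cells carry an empty vector. Nor do they say that the 3 libraries of a group are from separate cultures, and p-values therefore reflect library-to-library spread, part of which may be technical. The study asked how HOXB13 changes gene expression with and without the hormone.

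Ligands of this superfamily bind paired type I and type II serine/threonine kinase receptors, which phosphorylate receptor-regulated SMADs. TGF-beta and activin signal mainly through SMAD2 and SMAD3, and BMPs mainly through SMAD1, SMAD5 and SMAD9; both branches share SMAD4. SMAD6, SMAD7, the SMURF ubiquitin ligases and the SKI family restrain the signal, and the ID genes, which encode inhibitors of basic helix-loop-helix transcription factors, are classical BMP targets. In normal mammary epithelium TGF-beta restrains growth.

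Estradiol lowered more of these genes than it raised, in both genotypes. In control cells 2 of the 37 tested members rose (TGFB1 and BMP8B) and 10 fell (TGFB2, TGFB3, BMP4, INHBB, LTBP1, LTBP2, ACVR1, ACVR1B, SMAD3 and ID2), and 25 did not pass. Among all 14799 tested genes, 8.65% rose and 6.72% fell in that comparison, against 5.41% and 27.0% of the members. In HOXB13 cells 3 members rose (BMP8B, TGFBR3 and SMAD9) and 9 fell (TGFB3, INHBB, LTBP1, LTBP2, LTBP3, ACVR1, SMAD3, SMAD7 and ID2), against 7.22% higher and 6.38% lower over all genes; the members' shares were 8.11% and 24.3%. The median log2 fold change of the tested members was −0.34 in control cells and −0.23 in HOXB13 cells, and that of all tested genes was −0.01 in both. BMP8B rose in both genotypes, and TGFB3, INHBB, LTBP1, LTBP2, ACVR1, SMAD3 and ID2 fell in both. A gene was called when its p from edgeR's quasi-likelihood test, adjusted by Benjamini-Hochberg over all tested genes, was under 0.05. In the paragraphs on single genes, values in parentheses are log2 fold changes of estradiol against vehicle from that test, and each library was left out on its own, so that "without" names 1 library at a time. The number of members that fell in control cells was 6 without control vehicle library 1 and 6 without control estradiol library 2. The number that rose was 1 without control estradiol library 1, and in HOXB13 cells it was 0 without vehicle library 2, 1 without vehicle library 3 and 1 without estradiol library 1. The shares of all genes called in these runs are not given, so these counts show only how calls depend on single libraries. The estradiol and vehicle libraries of a genotype did not overlap for 17 of 37 members in each genotype (45.9%), against 30.9% of all genes in control cells and 29.9% in HOXB13 cells.

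Promoter windows are shown for 4 of the 8 genes that passed in both genotypes, TGFB3, INHBB, LTBP2 and BMP8B, as examples of genes that fell or rose and that hold a match to GGTCA, 1 arm of the estrogen response element. Each is a RefSeq window on GRCh38.p14 from 250 bases before to 50 bases after the annotated start, 5′ to 3′ on the gene's strand, with GGTCA or its reverse complement in capitals. They lie at chr14:75982962-75983261 (minus strand, 1 of the gene's 2 windows) for TGFB3, chr2:120345886-120346185 (plus) for INHBB, chr14:74612188-74612487 (minus) for LTBP2 and chr1:39788816-39789115 (minus) for BMP8B.
TGFB3: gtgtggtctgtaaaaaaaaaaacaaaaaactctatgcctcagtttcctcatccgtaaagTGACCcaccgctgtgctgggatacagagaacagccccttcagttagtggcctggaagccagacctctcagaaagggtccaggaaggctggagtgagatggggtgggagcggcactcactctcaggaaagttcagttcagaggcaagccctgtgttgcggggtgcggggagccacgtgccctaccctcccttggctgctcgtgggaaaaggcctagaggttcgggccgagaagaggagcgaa
INHBB: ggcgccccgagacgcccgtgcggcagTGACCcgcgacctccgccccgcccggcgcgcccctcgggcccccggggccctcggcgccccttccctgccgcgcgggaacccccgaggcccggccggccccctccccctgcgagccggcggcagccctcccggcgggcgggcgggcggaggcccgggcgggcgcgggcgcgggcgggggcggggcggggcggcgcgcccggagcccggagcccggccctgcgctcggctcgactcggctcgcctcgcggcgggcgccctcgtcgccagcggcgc
LTBP2: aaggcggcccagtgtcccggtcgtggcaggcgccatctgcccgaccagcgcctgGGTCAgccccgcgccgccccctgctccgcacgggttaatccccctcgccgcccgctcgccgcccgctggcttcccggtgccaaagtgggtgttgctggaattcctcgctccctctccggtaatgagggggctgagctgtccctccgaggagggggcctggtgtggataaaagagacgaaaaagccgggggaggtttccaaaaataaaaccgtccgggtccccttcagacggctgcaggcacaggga
BMP8B: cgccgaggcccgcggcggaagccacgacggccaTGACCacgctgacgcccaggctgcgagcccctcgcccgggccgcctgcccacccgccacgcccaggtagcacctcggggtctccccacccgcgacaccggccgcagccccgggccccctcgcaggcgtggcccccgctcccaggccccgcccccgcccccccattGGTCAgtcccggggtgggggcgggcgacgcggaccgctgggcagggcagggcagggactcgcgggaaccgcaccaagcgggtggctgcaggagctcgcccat

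A GGTCA match, searched on both strands, was in 41.2% of the 17 windows of the 8 genes, 33.3% of the 69 windows of all members and 37.4% of 35116 windows in all. The full element, GGTCA and TGACC with any 3 bases between, was in 0 member windows and in 0.0570% of all windows. The SMAD box CAGAC was in 58.8% of the windows of the 8 genes, 50.7% of member windows and 45.3% of all. Windows are not independent units, since a gene can have several, some of which overlap. TGFBR1 gave 8 of the 69 windows and SMAD3 gave 5 of the 17. By gene, 5 of the 8 held a SMAD box and 6 of the 8 held a GGTCA match. The share of all genes counted this way was not taken, and the shares of windows above are not its equal. A gene with more windows has more chances of a match, so these counts by gene show no excess. The palindromic SMAD box GTCTAGAC was in 1 member window, that of SMAD6, or 1.45%, against 0.202% of all. The GC-rich BMP site GGCGCC was in 23.5%, 21.7% and 19.2%, and its core CGCC, which GGCGCC contains, in 70.6%, 84.1% and 71.4%. Such matches describe letters and are not binding sites. Windows were found for 39 of the 42 members; BMP2, BMP7 and SKI had none in the table used.

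Total counts were 17679824 to 21385996 per library. HOXB13 had 92 to 112 counts in the HOXB13 libraries and 0 to 2 in the control libraries, as labelled. Estradiol and vehicle libraries separated on the leading principal component (35.5% of the variance), and the 4 libraries numbered 2, 1 from each group, stood apart on the second (17.8%). All 8 luminal markers were detected, with a summed level of 18214 to 23548 CPM in control vehicle libraries. Of 10 fibroblast and pericyte markers 7 were tested and FAP was at 0; their sum in control cells was 80.1 to 92.8 CPM with vehicle and 88.8 to 96.5 CPM with estradiol, and 85.6 to 97.9 and 94.7 to 102 in HOXB13 cells, mostly COL1A1 (51.5 to 64.1 CPM). Endothelial markers summed to at most 0.313 CPM, with CDH5 at 0, and leukocyte markers to at most 2.61 CPM. The sum of 4 basal markers was mostly MYLK (5.47 to 14.8 CPM), the only 1 of them tested. KRT5, KRT14 and TP63 had at most 2, 6 and 12 counts in any library, so the sum follows 1 gene. It was lower in estradiol without overlap in control cells, at 9.34 to 11.9 CPM in vehicle against 5.93 to 8.01 CPM. In HOXB13 cells it was lower with overlap, at 9.61 to 15.5 CPM against 6.80 to 10.7. The part of this sum in the results below was not tested. In bulk libraries, fewer cells of a type and less RNA per cell cannot be told apart.

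Levels of different genes were compared as CPM (read counts scaled to library size after TMM) per kilobase of exon. In control cells in vehicle the highest was TGFB3, a TGF-beta isoform, at 81.4 CPM per kb, then INHBB, the activin beta B subunit, at 59.5, and LTBP1, which holds latent TGF-beta in the matrix, at 44.9. ID3 (40.97), LTBP3 (32.2) and ID1 (28.4) followed, and then BMP4 (14.99), SKI (13.8), ACVR1B (11.95) and BMPR2 (10.9). TGFB2 stood at 4.24 and TGFB1 at 0.218 CPM per kb, so TGFB3 had the highest level of the 3 TGF-beta isoforms on this scale. TGFBR2, the type II receptor for TGF-beta, had 3 counts over all 12 libraries, a level of 0.00370 CPM per kb in control vehicle libraries, whereas its type I partner TGFBR1 was at 7.95. Exon lengths come from a GRCh38 annotation, not from the one the counts were made with, so these levels are approximate.

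**Figure D1:**
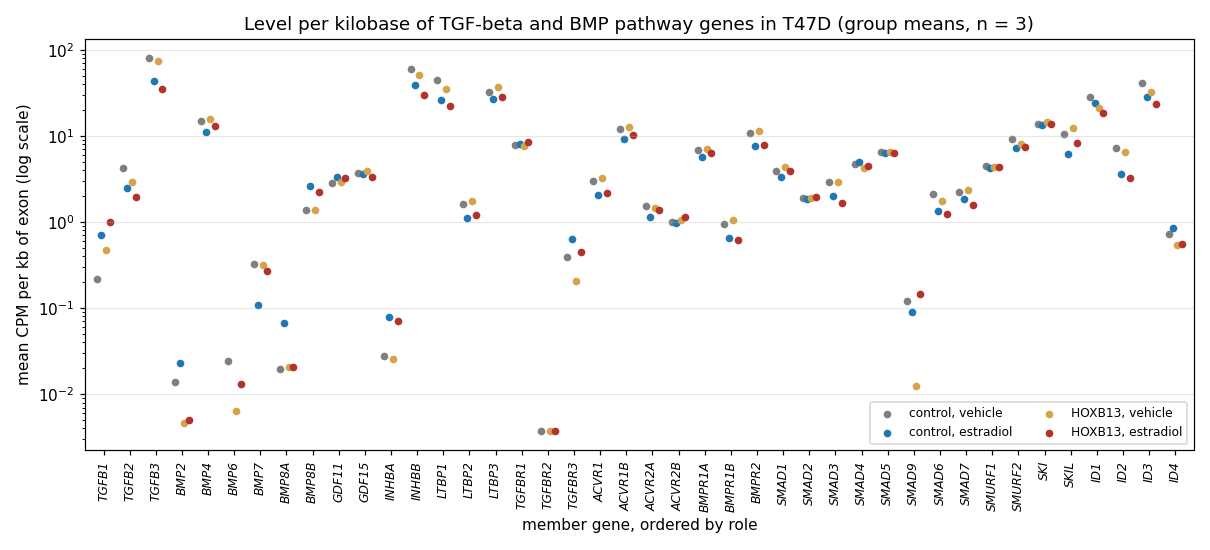
Mean CPM per kilobase of exon (log axis) of each member, ordered by role, with 1 point per group of 3 libraries; groups at 0 are not drawn. TGFB3, INHBB and LTBP1 lie highest in control vehicle cells, and TGFBR2 and several BMP ligands lie lowest.

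The 3 TGF-beta ligands differed in direction. TGFB3 had 235, 228 and 215 CPM in control vehicle libraries 1, 2 and 3 and 113, 120.4 and 126 in estradiol. In HOXB13 cells it had 198, 217 and 205 CPM in vehicle and 94.5, 91.1 and 110.1 in estradiol. Every estradiol library was below every vehicle library of its genotype. TGFB3 fell 1.88-fold in control cells (log2 fold change −0.91 ± 0.10 (SE), adjusted p = 2.82e-05) and 2.09-fold in HOXB13 cells (−1.07 ± 0.10 (SE), adjusted p = 1.43e-05), and passed under every alternative run.

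TGFB2, a further isoform, had 27.1, 17.3 and 19.8 CPM in control vehicle libraries and 16.5, 11.3 and 10.3 in control estradiol libraries. Its HOXB13 libraries had 12.8, 16.2 and 15.5 CPM in vehicle and 9.14, 11.3 and 9.10 in estradiol. The treatments did not overlap in either genotype, and TGFB2 fell in control cells (−0.75 ± 0.20 (SE), adjusted p = 0.0205). The call ended without control vehicle library 1 or estradiol libraries 2 or 3 (adjusted p = 0.0803 to 0.115). In HOXB13 cells the difference was −0.59 ± 0.21 (SE), adjusted p = 0.0758, and 0.0121 with the replicate number as a block. In the annotation used here 27.1% of TGFB2's exon bases also lie in the same-strand transcript TGFB2-OT1. The count table has no row under that name, and whether the overlap affected TGFB2's counts was not tested.

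TGFB1, the isoform best known in immune and stromal signalling, was scarce. It had 13, 10 and 13 counts in control vehicle libraries and 50, 35 and 33 in control estradiol libraries, which are 0.652, 0.479 and 0.679 and 2.44, 1.81 and 1.60 CPM. HOXB13 libraries had 42, 20 and 16 counts in vehicle and 68, 59 and 29 in estradiol, or 2.08, 1.06 and 0.837 and 3.61, 3.07 and 1.57 CPM. It rose in control cells, where the groups did not overlap (3.22-fold; 1.69 ± 0.43 (SE), adjusted p = 0.0150), and the call ended without control estradiol library 1 (adjusted p = 0.0577). In HOXB13 cells the groups overlapped (1.05 ± 0.39 (SE), adjusted p = 0.0944); the adjusted p was 0.0177 with the replicate block, 0.0377 without HOXB13 vehicle library 1 and 0.0473 without HOXB13 estradiol library 3.

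Among the BMP and GDF ligands, 5 of 8 were tested. BMP8B, a BMP ligand, had 7.62, 5.65 and 6.63 CPM in control vehicle libraries and 14.9, 11.7 and 11.8 in control estradiol libraries. In HOXB13 cells the values were 8.19, 5.34 and 6.17 CPM in vehicle and 12.1, 10.7 and 9.21 in estradiol. No estradiol library overlapped the vehicle libraries of its genotype. BMP8B rose 1.93-fold in control cells (0.95 ± 0.19 (SE), adjusted p = 0.00353) and 1.62-fold in HOXB13 cells (0.70 ± 0.19 (SE), adjusted p = 0.0259); the call in HOXB13 cells ended without HOXB13 vehicle libraries 2 or 3 or estradiol libraries 1 or 2 (adjusted p = 0.0606 to 0.109). BMP8B has a near-identical neighbour, BMP8A, which held 13 counts in all 12 libraries, so how reads were split between them is uncertain. It also shares 1.66% of its exon bases with PPIE on the opposite strand, and the strand setting of the counting is not given in the sources used here.

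BMP4, a ligand with broad roles in epithelial development, had 32.1, 29.2 and 33.4 CPM in control vehicle libraries and 23.1, 20.1 and 27.1 in control estradiol libraries. HOXB13 libraries had 31.4, 36.7 and 30.8 CPM in vehicle and 30.3, 26.5 and 26.6 in estradiol, and neither genotype's treatments overlapped. BMP4 fell in control cells (−0.43 ± 0.13 (SE), adjusted p = 0.0385), a call that ended without control vehicle libraries 1 or 3 or estradiol libraries 1 or 2 (adjusted p = 0.0968 to 0.161) and without the filter on low counts (adjusted p = 0.0574). In HOXB13 cells it did not pass (−0.24 ± 0.13 (SE), adjusted p = 0.256).

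BMP7, a ligand that signals through SMAD1 and SMAD5, had 28, 17 and 37 counts in control vehicle libraries and 10, 9 and 9 in control estradiol libraries, with no overlap of their CPM. The difference in control cells was −1.56 ± 0.53 (SE), adjusted p = 0.0627, and 0.0199 with the replicate block; without control vehicle library 2 it was 0.0308. In HOXB13 cells BMP7 differed by −0.24, adjusted p = 0.820. GDF11, related to myostatin, did not pass in either genotype (0.22, adjusted p = 0.366 in control cells), nor did GDF15, a stress-induced cytokine (−0.07, adjusted p = 0.900). BMP2 and BMP6 had 10 and 7 counts in all libraries together and were not tested.

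INHBB had 209, 174 and 188 CPM in control vehicle libraries and 135, 118 and 121 in control estradiol libraries. In HOXB13 cells it had 158, 173 and 159 CPM in vehicle and 90.8, 102 and 93.8 in estradiol, and treatments did not overlap in either genotype. It fell 1.53-fold (−0.61 ± 0.10 (SE), adjusted p = 0.000784) and 1.71-fold (−0.78 ± 0.10 (SE), adjusted p = 0.000187), under every alternative run. INHBA, the activin beta A subunit, was not tested: it had 0 to 20 counts per library, 11 in control vehicle libraries together, 32 in control estradiol, 10 in HOXB13 vehicle and 26 in HOXB13 estradiol. The estradiol to vehicle ratio of its summed counts was 2.88 in control cells (exact 95% interval 1.42 to 6.34) and 2.68 in HOXB13 cells (1.25 to 6.23), intervals that cover counting error only.

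Of the 3 latent TGF-beta binding proteins, 2 fell in control cells and 3 in HOXB13 cells. LTBP1 had 364, 256 and 279.8 CPM in control vehicle libraries and 197, 157 and 168 in control estradiol libraries. HOXB13 libraries had 221, 245 and 234 in vehicle and 142, 167 and 137 in estradiol. The treatments did not overlap, and LTBP1 fell in control cells (−0.78 ± 0.13 (SE), adjusted p = 0.00120) and in HOXB13 cells (−0.65 ± 0.13 (SE), adjusted p = 0.00500) under every alternative run.

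LTBP2, a matrix protein of the same family, had 12.8, 13.03 and 15.6 CPM in control vehicle and 9.08, 9.80 and 9.84 in control estradiol libraries, and 14.4, 13.6 and 17.1 and 10.5, 10.7 and 9.48 in the HOXB13 libraries. It fell without overlap in control cells (−0.53 ± 0.14 (SE), adjusted p = 0.0187) and in HOXB13 cells (−0.56 ± 0.14 (SE), adjusted p = 0.0157). The first call ended without control vehicle library 3 or estradiol libraries 1 or 3 (adjusted p = 0.0539 to 0.0855), and the second without HOXB13 vehicle library 3 or estradiol library 3 (adjusted p = 0.0672 to 0.0722). LTBP3, needed for secretion of latent TGF-beta, had 186, 211 and 198 and 156, 179 and 164 CPM in control vehicle and estradiol libraries. Its HOXB13 libraries had 241, 229 and 209 and 185, 194 and 146 CPM, and neither genotype's treatments overlapped. LTBP3 fell in HOXB13 cells (−0.37 ± 0.12 (SE), adjusted p = 0.0471), but not without HOXB13 vehicle libraries 1 or 2 or estradiol libraries 1 or 3 (adjusted p = 0.0838 to 0.183). In control cells the adjusted p was 0.161 for −0.26 ± 0.12 (SE), and 0.0138 with the replicate block.

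**Figure D2:**
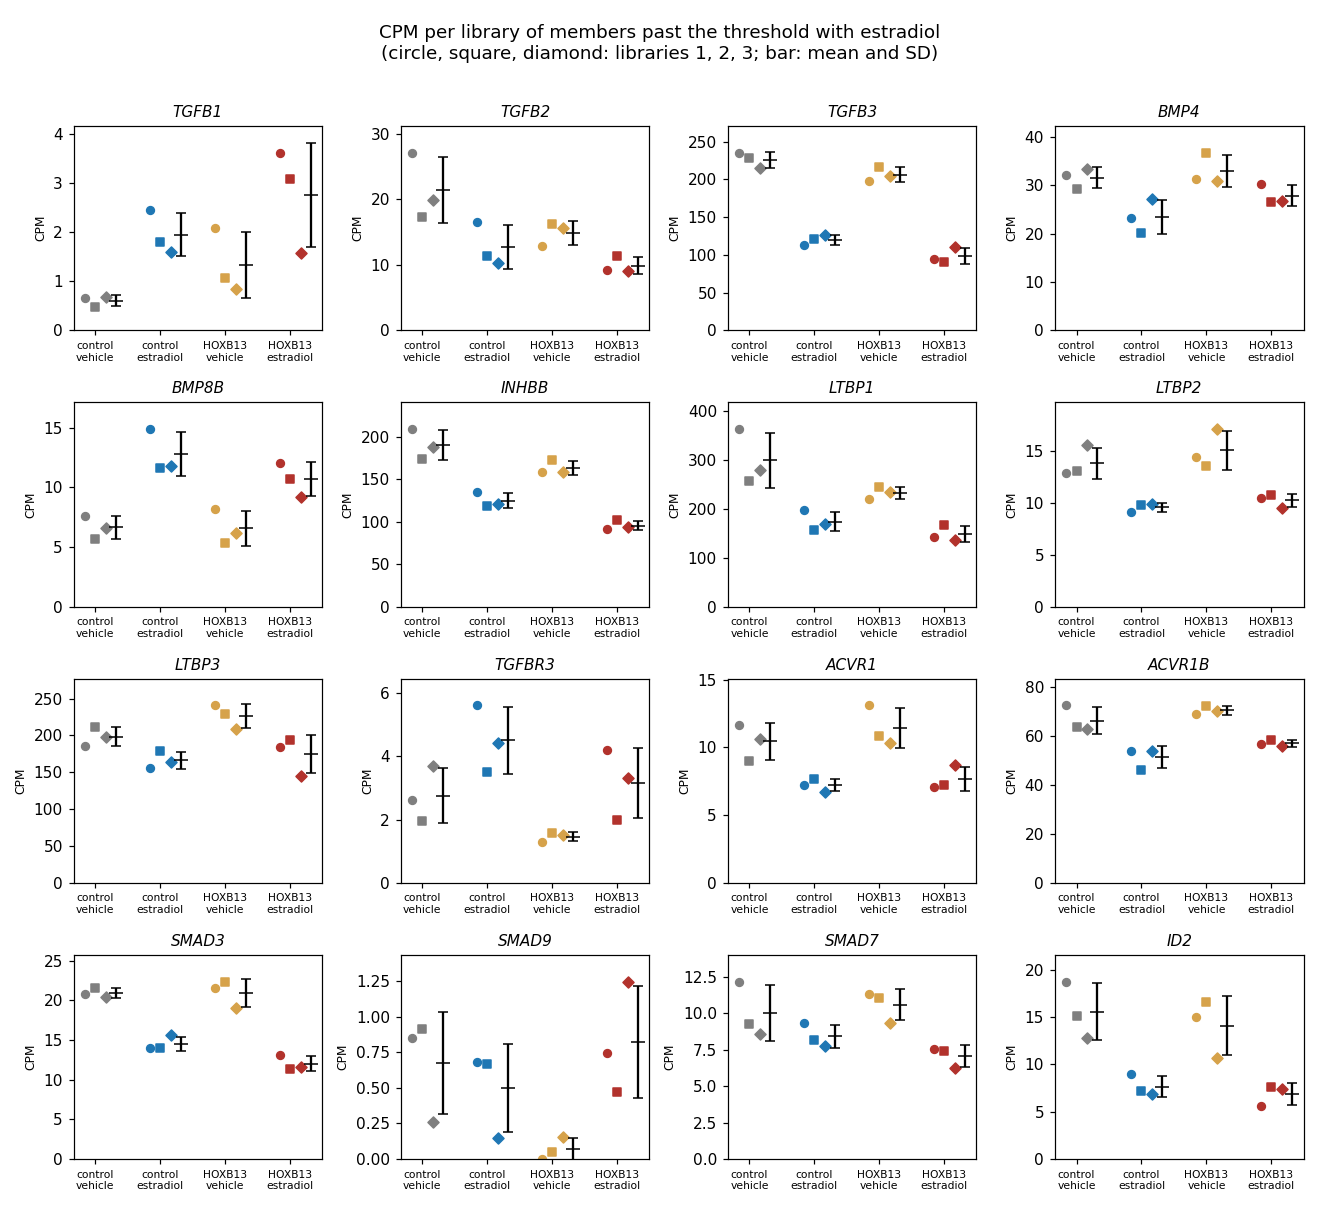
CPM of each library for the 16 members past the threshold in at least 1 estradiol comparison, by group; circles, squares and diamonds are libraries 1, 2 and 3, and the bar is the mean with SD. In both genotypes the estradiol libraries of TGFB3, INHBB, LTBP1, LTBP2, ACVR1, SMAD3 and ID2 lie below their vehicle libraries, and those of BMP8B lie above.

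Of the TGF-beta receptors, TGFBR3, or betaglycan, which presents ligand to the signalling receptors, had 2.61, 1.96 and 3.71 CPM in control vehicle libraries and 5.62, 3.51 and 4.41 in control estradiol libraries. In HOXB13 cells it had 1.29, 1.58 and 1.52 CPM in vehicle and 4.20, 1.98 and 3.30 in estradiol; only there were the treatments apart, with every estradiol library higher. TGFBR3 rose in HOXB13 cells (1.11 ± 0.33 (SE), adjusted p = 0.0364), but not with limma-voom (adjusted p = 0.0856) nor without HOXB13 vehicle libraries 1, 2 or 3 or estradiol libraries 1 or 3 (adjusted p = 0.0570 to 0.165). In control cells it differed by 0.71 ± 0.30 (SE), adjusted p = 0.135, and 0.0341 with the replicate block. TGFBR1 did not pass in either genotype (0.03, adjusted p = 0.963 in control cells and 0.14, adjusted p = 0.821 in HOXB13 cells).

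The 7 activin and BMP receptors had a median log2 fold change of −0.46 in control cells and −0.31 in HOXB13 cells. ACVR1, a type I receptor also called ALK2, had 11.7, 9.005 and 10.6 CPM in control vehicle libraries and 7.23, 7.64 and 6.74 in control estradiol libraries. Its HOXB13 libraries had 13.1, 10.8 and 10.3 CPM in vehicle and 7.06, 7.19 and 8.67 in estradiol. ACVR1 fell without overlap in control cells (−0.54 ± 0.16 (SE), adjusted p = 0.0339) and in HOXB13 cells (−0.58 ± 0.16 (SE), adjusted p = 0.0254). The call in control cells ended without control vehicle libraries 1 or 3 or estradiol libraries 1, 2 or 3 (adjusted p = 0.0624 to 0.135) and without the low-count filter (adjusted p = 0.0627). The call in HOXB13 cells ended without HOXB13 vehicle library 1 or estradiol libraries 1 or 2 (adjusted p = 0.0808 to 0.125).

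ACVR1B, the activin type I receptor ALK4, had 72.7, 63.7 and 62.9 CPM in control vehicle libraries and 54.2, 46.4 and 54.1 in control estradiol libraries. Its HOXB13 libraries had 68.9, 72.5 and 70.3 and 56.8, 58.6 and 55.8 CPM, and the treatments were apart in both genotypes. It fell in control cells (−0.37 ± 0.10 (SE), adjusted p = 0.0223), a call that ended without control vehicle library 1 or estradiol library 2 (adjusted p = 0.102 to 0.109) and without the low-count filter (adjusted p = 0.0796). In HOXB13 cells the difference was −0.31 ± 0.10 (SE), adjusted p = 0.0563, and 0.00495 with the replicate block. ACVR2A, ACVR2B, BMPR1A, BMPR1B and BMPR2, the other receptors of the activin and BMP branches, did not pass in either genotype. BMPR2, the type II BMP receptor, differed by −0.50 ± 0.22 (SE), adjusted p = 0.149 in control cells and by −0.51 ± 0.22 (SE), adjusted p = 0.156 in HOXB13 cells. With the replicate block its adjusted p was 4.96e-05 and 3.84e-05, and without control vehicle library 2 it was 0.0200 in control cells. BMPR1B passed with the block in both genotypes (0.0326 and 0.00459), and ACVR2A and BMPR1A in control cells (0.0444 and 0.0222). ACVR2A shares 7.50% of its exon bases with ORC4 on the opposite strand.

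Among the SMADs, SMAD3, the activin and TGF-beta effector, had 20.8, 21.6 and 20.4 CPM in control vehicle libraries and 13.97, 13.98 and 15.6 in control estradiol libraries. In HOXB13 cells it had 21.5, 22.3 and 18.99 CPM in vehicle and 13.1, 11.3 and 11.6 in estradiol. The treatments were apart in both genotypes, and SMAD3 fell 1.44-fold in control cells (−0.53 ± 0.12 (SE), adjusted p = 0.00773) and 1.74-fold in HOXB13 cells (−0.80 ± 0.12 (SE), adjusted p = 0.000617), under every alternative run. SMAD2, which shares its pathway, differed by −0.01, adjusted p = 0.951 in control cells and 0.02, adjusted p = 0.915 in HOXB13 cells. The common partner SMAD4 (0.08, adjusted p = 0.804 and 0.09, adjusted p = 0.791) and the BMP effectors SMAD1 (−0.22, adjusted p = 0.373 and −0.16, adjusted p = 0.572) and SMAD5 (−0.04, adjusted p = 0.931 and −0.05, adjusted p = 0.910) did not pass either.

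SMAD9, or SMAD8, a BMP effector, rested on few counts. It had 17, 19 and 5 counts in control vehicle libraries and 14, 13 and 3 in control estradiol libraries, or 0.852, 0.910 and 0.261 and 0.684, 0.671 and 0.145 CPM. HOXB13 libraries had 0, 1 and 3 counts in vehicle and 14, 9 and 23 in estradiol, or 0, 0.0528 and 0.157 and 0.744, 0.469 and 1.25 CPM. The estradiol to vehicle ratio of the summed counts in HOXB13 cells was 11.8 (exact 95% interval 4.33 to 45.3, for counting error only). SMAD9 rose in HOXB13 cells (3.45 ± 0.89 (SE), adjusted p = 0.0185), and the call ended without HOXB13 vehicle libraries 1 or 2 or estradiol library 3 (adjusted p = 0.0501 to 0.0788). In control cells it did not pass (−0.44 ± 0.67 (SE), adjusted p = 0.722).

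Of the inhibitory SMADs, SMAD7, which blocks TGF-beta receptors, had 12.2, 9.29 and 8.61 CPM in control vehicle libraries and 9.33, 8.20 and 7.76 in control estradiol libraries. In HOXB13 cells it had 11.4, 11.04 and 9.36 CPM in vehicle and 7.54, 7.45 and 6.23 in estradiol, and only there were the treatments apart. It fell in HOXB13 cells (−0.58 ± 0.17 (SE), adjusted p = 0.0336), but not without HOXB13 vehicle libraries 1 or 2 or estradiol libraries 1, 2 or 3 (adjusted p = 0.0609 to 0.129), and differed by −0.25, adjusted p = 0.358 in control cells. SMAD6, which restrains the BMP branch, differed by −0.64 ± 0.22 (SE), adjusted p = 0.0610 in control cells and −0.49, adjusted p = 0.173 in HOXB13 cells; in control cells its adjusted p was 0.0139 with the replicate block and 0.0232 without control vehicle library 3.

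The ubiquitin ligases SMURF1 (−0.07, adjusted p = 0.757 in control cells) and SMURF2 (−0.34, adjusted p = 0.406) did not pass, nor did the corepressors SKI (−0.03, adjusted p = 0.903) and SKIL, which bind and silence SMAD complexes. SKIL had 97.3, 44.1 and 89.5 CPM in control vehicle and 55.4, 27.3 and 49.5 in control estradiol libraries, and 92.8, 53.2 and 119 and 59.8, 34.6 and 83.7 in HOXB13 cells. Library 2 was the lowest of each of these 4 groups. The difference was −0.80 ± 0.37 (SE), adjusted p = 0.172 and −0.57 ± 0.37 (SE), adjusted p = 0.362; with the replicate block the adjusted p was 1.83e-06 and 8.99e-05, and without control vehicle library 2 it was 0.0424 in control cells. SMURF2 passed with the block in control cells (adjusted p = 0.0448).

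Of the 4 ID genes, 1 passed. ID2 had 18.8, 15.1 and 12.8 CPM in control vehicle libraries and 8.94, 7.17 and 6.84 in control estradiol libraries. Its HOXB13 libraries had 14.99, 16.6 and 10.7 CPM in vehicle and 5.58, 7.66 and 7.37 in estradiol. The treatments did not overlap, and ID2 fell 2.03-fold in control cells (−1.02 ± 0.20 (SE), adjusted p = 0.00329) and 2.05-fold in HOXB13 cells (−1.04 ± 0.21 (SE), adjusted p = 0.00376), under every alternative run. ID3 differed by −0.54 ± 0.19 (SE), adjusted p = 0.0646 in control cells and −0.48 ± 0.19 (SE), adjusted p = 0.110 in HOXB13 cells; with the replicate block the adjusted p was 0.000318 and 0.00156, and without control vehicle library 3 it was 0.0202 in control cells. ID1 (−0.22, adjusted p = 0.524 and −0.19, adjusted p = 0.631) and ID4 (0.24, adjusted p = 0.750 and 0.03, adjusted p = 0.978) did not pass.

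**Figure D3:**
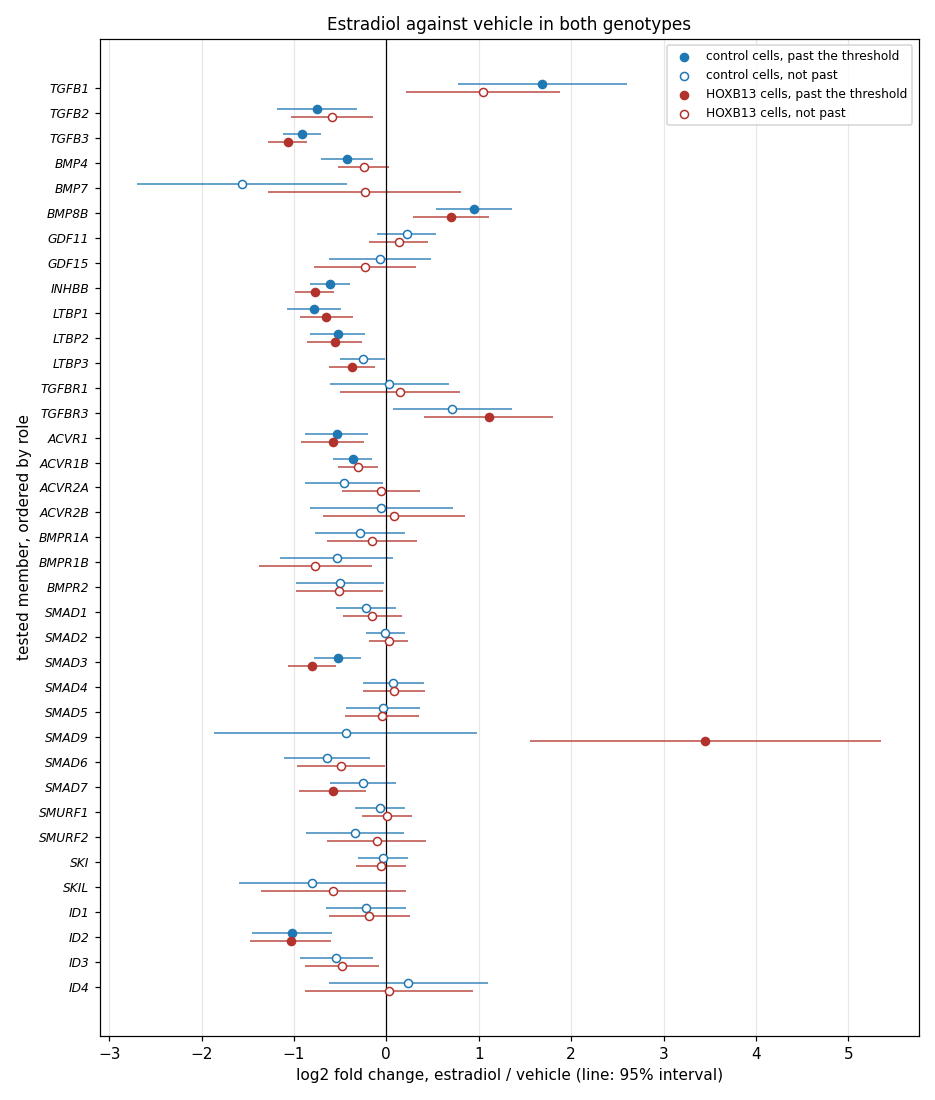
Log2 fold change of estradiol against vehicle for the 37 tested members in control cells (blue) and HOXB13 cells (red), with 95% intervals; filled points passed the threshold. Most points lie left of 0 in both genotypes, with BMP8B filled on the right in both.

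The estradiol responses of the 2 genotypes share no libraries, so their signs can be set side by side. Of the 37 tested members, 33 moved in the same direction in both genotypes, whatever the size, and 26 of these were lower with estradiol. The same count over all tested genes was not made, so this agreement is not shown to be particular to these genes. ACVR2B, SMAD2, SMAD9 and SMURF1 had opposite signs. A member past the threshold in 1 genotype and not in the other is not thereby shown to respond differently, and the interaction tests that difference. By edgeR's quasi-likelihood test 0 members passed it, as did 0 (0%) of all genes in either direction; 1 member and 219 of all genes had an unadjusted p under 0.05. The member was SMAD9, whose log2 response was 3.89 ± 1.13 (SE) higher in HOXB13 cells (unadjusted p = 0.00386, adjusted p = 1.0). Among members whose log2 CPM averaged 1 or more, the largest differences in response were in ACVR2A (0.41, 95% interval −0.19 to 1.003), TGFBR3 (0.39, −0.55 to 1.34), SMAD7 (−0.33, −0.84 to 0.18) and SMAD3 (−0.27, −0.64 to 0.09). The median half-width of the members' 95% intervals was 0.58. These intervals are not adjusted for the number of genes tested, so 0.58 is not a limit of detection. Differences in response of that size, or larger, could also have gone uncalled.

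HOXB13 against control cells gave 0 called members in vehicle and 0 in estradiol with edgeR's quasi-likelihood test, and also 0 with DESeq2 and limma-voom. Over all genes, 0.0203% were higher and 0% lower in vehicle, and 0.0135% higher and 0% lower in estradiol. The lowest adjusted p of a member was 0.758 in vehicle and 0.656 in estradiol. In vehicle 6 members had an unadjusted p under 0.05 (TGFB1, TGFB2, INHBB, LTBP1, TGFBR3 and SMAD9), beside 559 of all genes, and in estradiol 4 did (TGFB3, BMP7, INHBB and SMAD3), beside 489. The median 95% half-width was 0.42 and 0.40 on the log2 scale. These comparisons share libraries with the estradiol comparisons, so the values are not independent of those above.

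In vehicle the groups did not overlap for 6 of 37 members (16.2%), against 7.14% of all genes: TGFB1 was higher in every HOXB13 library, and TGFB2, INHBB, LTBP1, TGFBR3 and SMAD9 were lower. TGFBR3 averaged 2.76 ± 0.881 CPM in control cells and 1.46 ± 0.154 in HOXB13 cells (SD, n = 3; −0.91 ± 0.33 (SE), adjusted p = 1.0 by edgeR's test). TGFB2 averaged 21.4 ± 5.06 and 14.8 ± 1.79 CPM (−0.53 ± 0.20 (SE), adjusted p = 1.0), LTBP1 299.9 ± 56.4 and 233 ± 12.2 (−0.36 ± 0.13 (SE), adjusted p = 1.0), and ID1 35.01 ± 7.14 and 26.04 ± 5.86 (−0.43 ± 0.20 (SE), adjusted p = 1.0), whose libraries overlapped. SMAD9 had 4 counts in HOXB13 vehicle libraries together and 41 in control vehicle libraries, a ratio of 0.101 with an exact 95% interval of 0.0262 to 0.278 for counting error.

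In estradiol the groups did not overlap for 7 of 37 members (18.9%), against 9.88% of all genes. BMP7, ACVR1B and ACVR2A were higher in every HOXB13 library, and TGFB3, INHBB, SMAD3 and SMAD7 were lower. The largest differences among members averaging a log2 CPM of 1 or more were in TGFBR3 (−0.51 ± 0.30 (SE), adjusted p = 0.999 by edgeR's test), SKIL (0.43 ± 0.37 (SE), adjusted p = 0.999), ID1 (−0.39 ± 0.20 (SE), adjusted p = 0.999) and INHBB (−0.39 ± 0.10 (SE), adjusted p = 0.656). INHBB averaged 125 ± 9.05 CPM in control cells and 95.4 ± 5.55 in HOXB13 cells (SD, n = 3). With the replicate block it was the 1 member called in these comparisons, lower in HOXB13 cells in estradiol with an adjusted p of 0.0218. The block called 0.189% of all genes higher and 0.216% lower in vehicle, and 0.142% higher and 0.25% lower in estradiol.

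**Figure D4:**
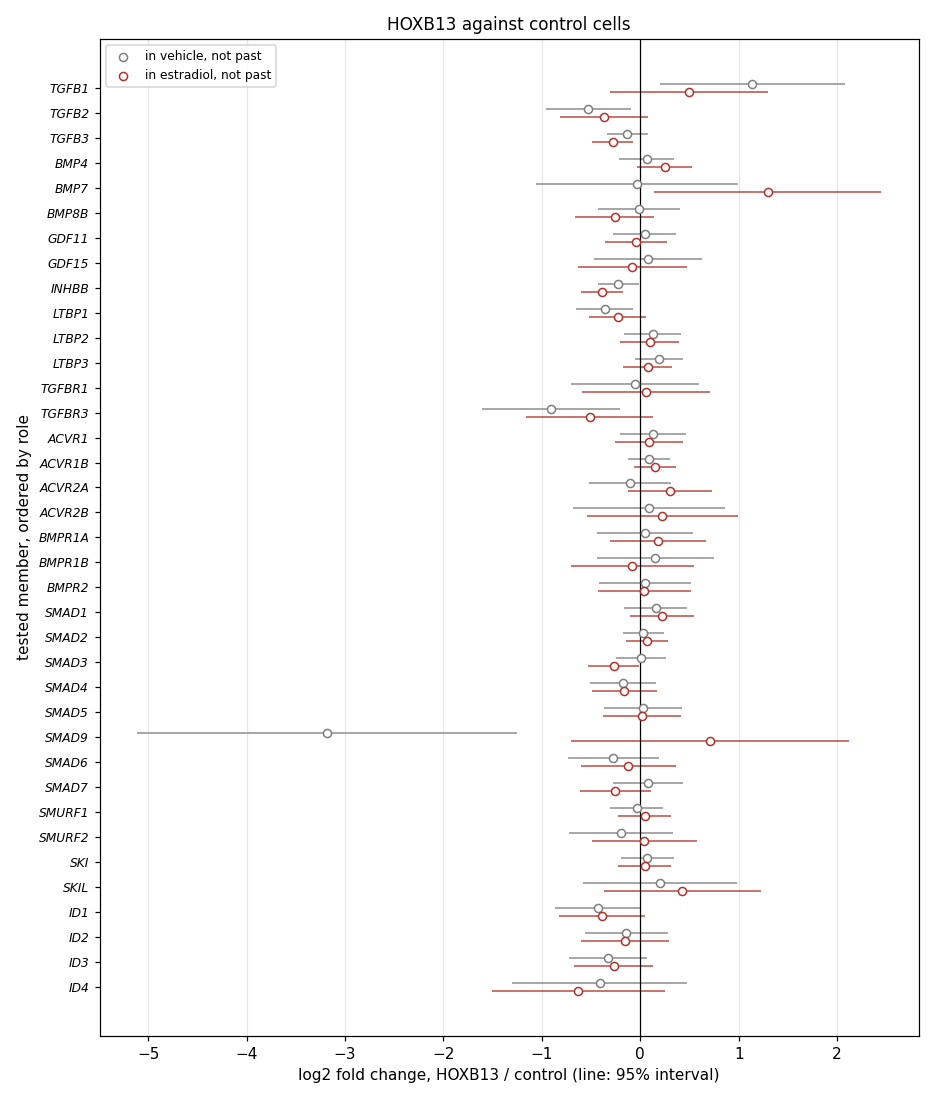
Log2 fold change of HOXB13 against control cells for the 37 tested members in vehicle (grey) and in estradiol (red), with 95% intervals. All points are open, since no member passed the threshold; SMAD9 in vehicle lies farthest from 0.

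The libraries numbered 2 also deviated from their groups in some of these genes. In all 4 groups library 2 was below its group mean for 11 members: GDF11, TGFBR1, ACVR2B, BMPR1A, BMPR1B, BMPR2, SMAD2, SMAD4, SMAD5, SMURF2 and SKIL. The mean deviation was −0.67 in log2 CPM for SKIL, −0.62 for ACVR2B and −0.52 for TGFBR1. GDF15, LTBP3, ID1 and ID3 were above their group mean in all 4. The same counts over all tested genes were not made, so the shift is not shown to be particular to these genes. What the replicate numbers stand for is not given in the labels, and the source of the shift was not tested. With the replicate number as a block, 3 members were called higher and 20 lower in control cells, against 17.5% and 16.5% of all genes, and 4 higher and 15 lower in HOXB13 cells, against 15.5% and 15.0%. Without the 4 libraries numbered 2, a choice made after the data were seen, 2 members were higher and 16 lower in control cells (12.9% and 11.2% of all genes) and 3 higher and 14 lower in HOXB13 cells (11.8% and 10.4%).

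Some members that missed the threshold passed it under another test or filter. With DESeq2 these were, by adjusted p, BMP7 0.0270, SMAD6 0.0310 and ID3 0.0360 in control cells and TGFB2 0.0426 and ACVR1B 0.0206 in HOXB13 cells. Without the low-count filter they were BMP7 0.0198, BMPR2 0.00266, SMAD6 0.0388, SKIL 4.66e-07 and ID3 0.00436 in control cells and TGFB2 0.0161, BMPR1B 0.0256, BMPR2 0.00300, SKIL 0.00110 and ID3 0.0198 in HOXB13 cells. All of these were lower with estradiol. Leaving out the filter ended the control-cell calls of BMP4, ACVR1 and ACVR1B (adjusted p = 0.0574, 0.0627 and 0.0796 by edgeR's test). SKIL in control cells had a log2 fold change of −0.80 with and without the filter, beside an adjusted p of 0.172 and 4.66e-07. The reason was not tested. The shares of all genes called with DESeq2 and without the filter are not given. Passes in either run therefore show only how calls depend on the run.

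**Figure D5:**
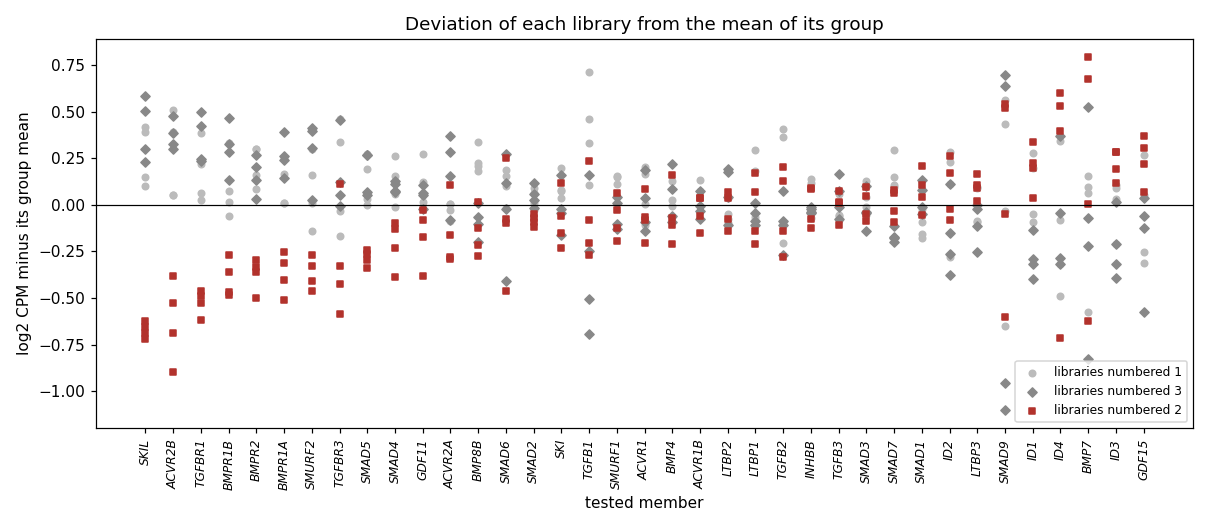
Deviation of each library's log2 CPM from the mean of its group for the 37 tested members, ordered by the mean deviation of the libraries numbered 2 (red squares); grey circles and diamonds are libraries 1 and 3. SKIL, ACVR2B and TGFBR1 lie at the low end, with all 4 red squares below 0.

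Other genes of the pathway were read from 6 lists with 87 tested genes. In control cells 8 of these rose (9.20%, against 8.65% of all tested genes) and 12 fell (13.8%, against 6.72%). In HOXB13 cells 4 rose (4.60%, against 7.22%) and 15 fell (17.2%, against 6.38%). The shares that rose were thus near or below those of all genes, and the list counts below are to be read against the same 4 shares. The median log2 fold change in control and in HOXB13 cells was 0.44 and 0.61 for the ligands, −0.15 and −0.26 for the receptors and coreceptors, 0.04 and 0.02 for the extracellular antagonists and activators, −0.17 and −0.15 for the SMAD partners and −0.04 and −0.02 for the TGF-beta and activin targets. Of 20 other ligands of the superfamily 3 were tested; the 17 not tested had at most 10 counts in any library. INHBE, an activin subunit gene, rose from 3, 2 and 2 counts in control vehicle libraries to 8, 16 and 31 in control estradiol libraries (2.89 ± 0.64 (SE), adjusted p = 0.00678). It also rose in HOXB13 cells (1.96 ± 0.56 (SE), adjusted p = 0.0321), but not with limma-voom (adjusted p = 0.0506) nor without HOXB13 vehicle libraries 1, 2 or 3 or estradiol libraries 1 or 3 (adjusted p = 0.0711 to 0.114). All control vehicle libraries of INHBE were under the filter's minimum count of 10. INHBE was thus tested only through libraries where it was higher, and a fall in control cells could hardly have been called. Its call there is therefore partly set by the filter, also within the 8 that rose. Of 11 other receptors and coreceptors 6 were tested and 1 fell. That was BAMBI, a pseudoreceptor that damps TGF-beta and BMP signals, from 87.6 ± 12.1 to 34.2 ± 0.882 CPM in control cells (SD, n = 3; −1.36 ± 0.14 (SE), adjusted p = 1.67e-05) and from 79.9 ± 8.71 to 31.2 ± 4.65 in HOXB13 cells (−1.36 ± 0.14 (SE), adjusted p = 2.77e-05).

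Among 31 extracellular antagonists and ligand activators, 18 were tested; 4 rose (22.2%, against 8.65% of all genes) and 3 fell (16.7%, against 6.72%) in control cells. In HOXB13 cells 1 rose (5.56%, against 7.22%) and 2 fell (11.1%, against 6.38%). NBL1, a BMP antagonist, rose from 27.4 ± 2.87 to 55.004 ± 3.85 CPM in control cells (SD, n = 3; 1.004 ± 0.13 (SE), adjusted p = 0.000120) and also in HOXB13 cells (0.65, adjusted p = 0.00333). THBS1, or thrombospondin 1, which activates latent TGF-beta, rose in control cells (1.64 ± 0.39 (SE), adjusted p = 0.0101); in HOXB13 cells it differed by 1.21 ± 0.38 (SE), adjusted p = 0.0515, and passed without HOXB13 vehicle library 3 or estradiol library 2 (adjusted p = 0.0463 and 0.0258), with DESeq2 (0.0400), with limma-voom (0.0461) and without the low-count filter (1.69e-20). The log2 fold change of THBS1 in HOXB13 cells was also 1.21 without that filter, and why its adjusted p moved was not tested. BMPER, a BMP-binding protein, rose in control cells (1.55, adjusted p = 0.0162) but not without control vehicle library 1 or estradiol library 1 (adjusted p = 0.0715 to 0.0752). CHRD, or chordin, which also sequesters BMPs, fell in control cells (−1.34, adjusted p = 0.00557) and in HOXB13 cells (−0.91, adjusted p = 0.0490). The latter call ended with limma-voom (adjusted p = 0.0679) and without HOXB13 vehicle libraries 1 or 3 or estradiol libraries 1, 2 or 3 (adjusted p = 0.101 to 0.152). VASN, or vasorin, which binds TGF-beta, fell in both (−0.74, adjusted p = 0.00226 and −0.89, adjusted p = 0.000805). FSTL1, a follistatin-like protein, fell in control cells (−0.69, adjusted p = 0.00859) but not without control vehicle library 1 (adjusted p = 0.0502), and differed by −0.45, adjusted p = 0.0768 in HOXB13 cells.

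Of 31 intracellular SMAD partners and regulators 28 were tested, of which 1 rose and 1 fell in control cells (3.57% each, below the 8.65% and 6.72% of all genes). In HOXB13 cells 1 rose (3.57%, against 7.22%) and 2 fell (7.14%, against 6.38%). NEDD4L, a ubiquitin ligase that targets activated SMAD2 and SMAD3, fell in both (−0.58, adjusted p = 0.00165 and −0.62, adjusted p = 0.00127). UCHL5, a deubiquitinase, rose in control cells (0.43, adjusted p = 0.0190) but not without control vehicle libraries 1 or 3 or estradiol libraries 2 or 3 (adjusted p = 0.0686 to 0.0869). TGIF2, a SMAD corepressor, rose in HOXB13 cells (0.67, adjusted p = 0.0286) but not without HOXB13 vehicle libraries 1 or 2 or estradiol libraries 1 or 3 (adjusted p = 0.0660 to 0.135). In control cells TGIF2 passed without estradiol library 2 (adjusted p = 0.0346). PMEPA1, a feedback inhibitor of TGF-beta signalling, fell in HOXB13 cells (−0.34, adjusted p = 0.0444), but not without the low-count filter (adjusted p = 0.119) nor without HOXB13 vehicle libraries 1 or 2 or estradiol libraries 1 or 3 (adjusted p = 0.108 to 0.172).

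Target genes of the 2 branches were read as well, although each has other regulators. Of 25 TGF-beta and activin targets 20 were tested. In control cells 2 were higher and 2 lower, near the 8.65% and 6.72% of all genes, and in HOXB13 cells 1 was higher, against 7.22% of all genes, and 4 were lower, against 6.38%. FN1, fibronectin, fell from 132 ± 17.4 to 70.4 ± 11.3 CPM in control cells (SD, n = 3; −0.91, adjusted p = 0.000277) and fell in HOXB13 cells (−0.81, adjusted p = 0.000839). JUNB, an AP-1 subunit, fell in both (−0.76, adjusted p = 0.00456 and −0.76, adjusted p = 0.00577), and KLF10, a TGF-beta-induced zinc finger factor, rose in both (0.90, adjusted p = 0.00106 and 0.88, adjusted p = 0.00168). SNAI1, a repressor of E-cadherin, had 3, 0 and 1 counts in control vehicle libraries and 21, 16 and 14 in control estradiol libraries; it rose (3.54, adjusted p = 0.0208), but not without control vehicle library 3 or estradiol library 1 (adjusted p = 0.0551 to 0.0701). In HOXB13 cells SNAI1 passed without vehicle library 1 (adjusted p = 0.0280; 0.158 with all libraries). Like INHBE, SNAI1 was under the filter's minimum count of 10 in every control vehicle library. It was tested only through libraries where it was higher, so its call in control cells is also partly set by the filter. CDKN2B, the cyclin-dependent kinase inhibitor p15, fell in HOXB13 cells (−0.65, adjusted p = 0.0494), but not with DESeq2 size factors (adjusted p = 0.0502) nor without HOXB13 vehicle libraries 2 or 3 or estradiol libraries 1 or 3 (adjusted p = 0.0636 to 0.198). PDGFB, a growth factor subunit, fell there (−0.49, adjusted p = 0.00985) but not without HOXB13 vehicle library 1 (adjusted p = 0.0623).

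Of 17 BMP targets 12 were tested; 0 rose and 5 fell in control cells (41.7% lower, against 6.72% of all genes) and 0 rose and 6 fell in HOXB13 cells (against 6.38% of all genes), with a median log2 fold change of −0.46 and −0.53. SOX9, a transcription factor of progenitor cells, fell from 100.02 ± 7.48 to 53.9 ± 3.38 CPM in control cells (SD, n = 3; −0.89 ± 0.12 (SE), adjusted p = 0.000169) and from 101 ± 14.3 to 43.97 ± 3.36 in HOXB13 cells (−1.20 ± 0.12 (SE), adjusted p = 2.57e-05). The homeobox gene DLX1 fell in both (−1.42, adjusted p = 0.000178 and −1.09, adjusted p = 0.00147), as did HES1, a transcriptional repressor and Notch target (−1.15, adjusted p = 0.00157 and −0.94, adjusted p = 0.00727). DLX3 fell in HOXB13 cells (−0.68, adjusted p = 0.00422); in control cells its adjusted p was 0.0921, and 0.0432 without control vehicle library 3. With the replicate block, TGIF2, PMEPA1, CDKN2B, PDGFB and DLX3 also passed in control cells (adjusted p = 0.000698, 0.0153, 0.0213, 0.0244 and 0.00442), and THBS1, FSTL1 and SNAI1 in HOXB13 cells (0.000151, 0.0391 and 0.0284). FSTL1 in HOXB13 cells and TGIF2 in control cells also passed with DESeq2 (0.0488 and 0.0336) and without the low-count filter (0.0158 and 0.00922), and CDKN2B in control cells without that filter (0.00611). None of the 87 genes was called between HOXB13 and control cells, or in the interaction, by edgeR's quasi-likelihood test.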

How the data were processed

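RNA was sequenced in 12 T47D libraries, 3 in each of 4 groups set by the labels. The deposited values are raw counts per gene symbol. Per the submitters' processing notes the tools were FastQC, STAR, Picard and HTSeq, with genome builds GRCh37 and hg19; no tool version, annotation release or strand setting is given there. Low genes were removed with filterByExpr (edgeR, grouped by the 4 groups), at a minimum count of 10 and a total of 15, and libraries were scaled by TMM (0.974 to 1.04). Depth was 17679824 to 21385996 counts per library, so a gene with few counts, such as SMAD9, is measured imprecisely. Differences were tested in R 4.3.3 with edgeR 4.0.16, with a robust quasi-likelihood fit of group means over all 12 libraries with p-values adjusted by Benjamini-Hochberg over the 14799 tested genes, at 0.05, in each of 5 comparisons; log2 CPM used a prior count of 2. The code was tested on simulated data. Permuting 3 against 3 libraries exactly cannot give a two-sided p below 0.1 and was not used.

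The members, gene lists and rules were chosen with earlier results of these data known. Members past the threshold in any comparison are named with all libraries; between genotypes and in the interaction, the 4 with the largest log2 fold change at an average log2 CPM of at least 1; and from each pathway list, up to 4 per direction with the largest change among those past the threshold with estradiol. Other genes named are given as values only. A gene that this rule would name is not reported here.

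Equally numbered libraries deviated together from their group means in every pair of groups, with correlations across genes of 0.132 to 0.457 and 0.184 to 0.354 for estradiol in control and HOXB13 cells and 0.125 to 0.409 and 0.123 to 0.311 for HOXB13 in vehicle and estradiol, all above 0.1. Libraries with different numbers had correlations of at most 0.105, 0.0737, 0.169 and 0.120 in these comparisons. The labels do not say that the numbers pair the libraries. Number 2 had the highest value in each comparison; since deviations sum to 0 within a group, its shift enters the values of the other numbers too, and how much of them it accounts for was not tested. Blocked values are given where they change a call. Alternatives were the replicate block, DESeq2 size factors, no low-count filter, DESeq2 1.42.0, voom in limma 3.58.1, each library left out, and, added after seeing the data, the libraries numbered 2 left out. Exon lengths and overlaps came from GENCODE 29 and promoter windows from RefSeq on GRCh38.p14.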

Additional observations from a re-analysis of the deposited data

How the results depend on the processing

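The number of members lower with estradiol in control cells, 10, was 20 with the replicate block, 16 without the libraries numbered 2 and 6 to 13 with 1 library left out. In HOXB13 cells the 9 became 15 with the replicate block, 14 without the low-count filter, 14 without the libraries numbered 2 and 6 to 8 with 1 library left out. Members higher were 1 to 2 in control cells and 0 to 2 in HOXB13 cells with 1 library left out. The share of all genes called without the low-count filter, or with 1 library left out, is not given here. Counts from those runs, also of the other pathway genes below, therefore show only how calls depend on the run. HOXB13 against control cells in estradiol gave 1 lower member with the replicate block. Of the other pathway genes, the 8 higher in control cells became 16 with the block and 13 without the libraries numbered 2 (5 to 10 with 1 library left out), and the 12 lower became 26 and 20 (10 to 17). In HOXB13 cells the 4 higher became 12 and 7 (2 to 6), and the 15 lower became 26 with the block (11 to 13). The block also called more of all genes: 16 of 87 is 18.4%, against 17.5% of all genes higher, and 26 is 29.9%, against 16.5% lower; in HOXB13 cells 12 is 13.8%, against 15.5%, and 26 is 29.9%, against 15.0%. The cause was not tested. Without the libraries numbered 2, the 13 higher in control cells were 14.9%, against 12.9% of all genes, and the 20 lower were 23.0%, against 11.2%. In HOXB13 cells the 7 higher were 8.05%, against 11.8%, and 21 were lower, or 24.1%, against 10.4%. Without control vehicle library 3, 5 of the other pathway genes were higher in control cells, and without HOXB13 vehicle library 2 or estradiol library 1 or 3, 2 were higher in HOXB13 cells. THBS1, not called with the filter, passed between HOXB13 and control cells in vehicle without the low-count filter (adjusted p = 0.0440) and without the libraries numbered 2 (0.0397). PMEPA1 and PDGFB passed in estradiol with the block (0.00936 and 0.00449). No called gene named here changed direction under any alternative run. Few counts limit the precision for TGFB1, BMP7, SMAD9, INHBE and SNAI1, and the 5 members with the fewest could not be tested.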
